A study of Homo sapiens with 15 samples.

Results

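The genes described here carry glucose to pyruvate and lactate and pass pyruvate into mitochondria. The 32 genes were chosen by name, as hexokinase through lactate dehydrogenase, the regulators of these steps, the monocarboxylate transporters and the entry of pyruvate into mitochondria, a rule that uses no measured value, although earlier results of these data were known when the list was drawn up. All 32 were found among the 69215 genes listed in the count tables, and all 32 had enough counts to be tested. The cells were Caco-2, an established line from a human colon cancer that takes on features of small-intestinal absorptive cells when grown to confluence. The 3 groups, of 5 libraries each, were unexposed cells (control), cells given polysorbate 20 (PS20) and cells given polysorbate 80 (PS80), both emulsifiers at 0.05% for 24 h. The polysorbates are non-ionic surfactants used in food. They share an ethoxylated sorbitan head and differ in the fatty acid joined to it, mainly lauric acid in polysorbate 20 and oleic acid in polysorbate 80. All libraries came from 1 cell line, and no label said whether the replicates were separate cultures, so the p-values measure the spread between these libraries.

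Glycolysis splits glucose into pyruvate in the cytosol, with a first stage that spends ATP on hexose phosphates and a later stage that returns ATP from triose phosphates. Pyruvate is then reduced to lactate by lactate dehydrogenase and leaves the cell through proton-linked monocarboxylate transporters, or it crosses the inner mitochondrial membrane through the mitochondrial pyruvate carrier and is oxidized by the pyruvate dehydrogenase complex, which the pyruvate dehydrogenase kinases switch off. The flux is held mainly at hexokinase, phosphofructokinase and pyruvate kinase, and fructose 2,6-bisphosphate is a strong activator of phosphofructokinase. Many of these genes are known targets of hypoxia-inducible factors and of MYC, and colorectal cancer lines usually make much lactate.

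Library depth ranged from 4183096 to 42271053 counts with a median of 8829612, and the fewest counts of any of the 32 genes in any library were 17, for SLC16A3. Mitochondrial genes took 1.497% to 1.91% of the counts in control, 2.03% to 2.58% in PS20 and 1.45% to 2.97% in PS80. Of 12 epithelial and enterocyte markers, 10 were tested, and KRT20 and CDX1 were at 0 in control. The summed CPM (counts scaled to library size) of these markers was 10410 to 12220 in control, 8838 to 9543 in PS20 and 10660 to 11280 in PS80, so the epithelial sum was lowest in the PS20 libraries. With PS20, 4 of the 10 tested markers were lower and 4 higher. Keratin 8, KRT8, took much of the sum and fell from a mean of 4426 to 2678 CPM with PS20, and KRT18 and KRT19 fell too (-0.61 and -0.50), while CDH1, CDX2, CLDN7 and FABP1 rose (0.12 to 0.55). With PS80, CDX2 and CLDN7 rose and none fell. Of 12 markers of mesenchymal, endothelial and blood cells, 4 were tested, their sums were 146 to 167 CPM, 139 to 159 CPM and 131 to 181 CPM in control, PS20 and PS80, and ACTA2, CDH5, PTPRC, CD68 and HBB were at 0 in control. PDGFRB fell with both emulsifiers (-1.01 and -0.85 on the log2 scale), and PECAM1 rose with PS80 (0.56 ± 0.16, adjusted p = 0.00758) and was at 0.37 with PS20 (adjusted p = 0.06635). Whether the shifts in mitochondrial and marker counts have a part in the results was not tested. In bulk RNA, fewer cells of a type and less RNA per cell cannot be told apart. Per the file headers, 4 of the 5 PS80 libraries (replicates 1, 3, 4 and 5) were counted with another featureCounts version than the other 11, and an effect of that cannot be told apart from PS80 in those libraries.

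With PS20, 5 enzymes of the triose steps and lactate dehydrogenase A were lower than in control, PKM by 1.83-fold. With PS80 those 5 did not pass, and genes of the hexose steps were higher, PFKP by 1.68-fold. SLC16A3, which encodes the lactate exporter MCT4, was higher with both emulsifiers. With PS20, 7 of the 32 genes (21.9%) were higher than control and 9 (28.1%) lower, against 24.3% and 23.9% of all 12769 genes tested, so the share of the list that moved was near the background. With PS80, 11 (34.4%) were higher and 3 (9.4%) lower, against 17.2% and 16.0% of all genes. PS80 against PS20 directly gave 13 higher (40.6%) and 3 lower (9.4%), against 18.0% and 17.2% of all genes. Genes were called by edgeR's quasi-likelihood test at a Benjamini-Hochberg adjusted p under 0.05, and every adjusted p on single genes below comes from that test. The median log2 fold change of the 32 genes was -0.014 with PS20, 0.106 with PS80 and 0.128 for PS80 against PS20, and over all genes tested it was 0.011, 0.002 and -0.002. The comparisons share libraries, so their values are given side by side and not as independent results. With library size alone as the scaling, the PS80 split against control moved from 11 higher and 3 lower to 9 higher and 5 lower, and with no filter on low counts it moved the other way, to 13 higher and 1 lower. The split over all genes moved in the same directions. It was 2199 higher and 2044 lower at first, 1927 and 2370 with library size alone, and 2304 and 1611 with no filter.

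**Figure D1:**
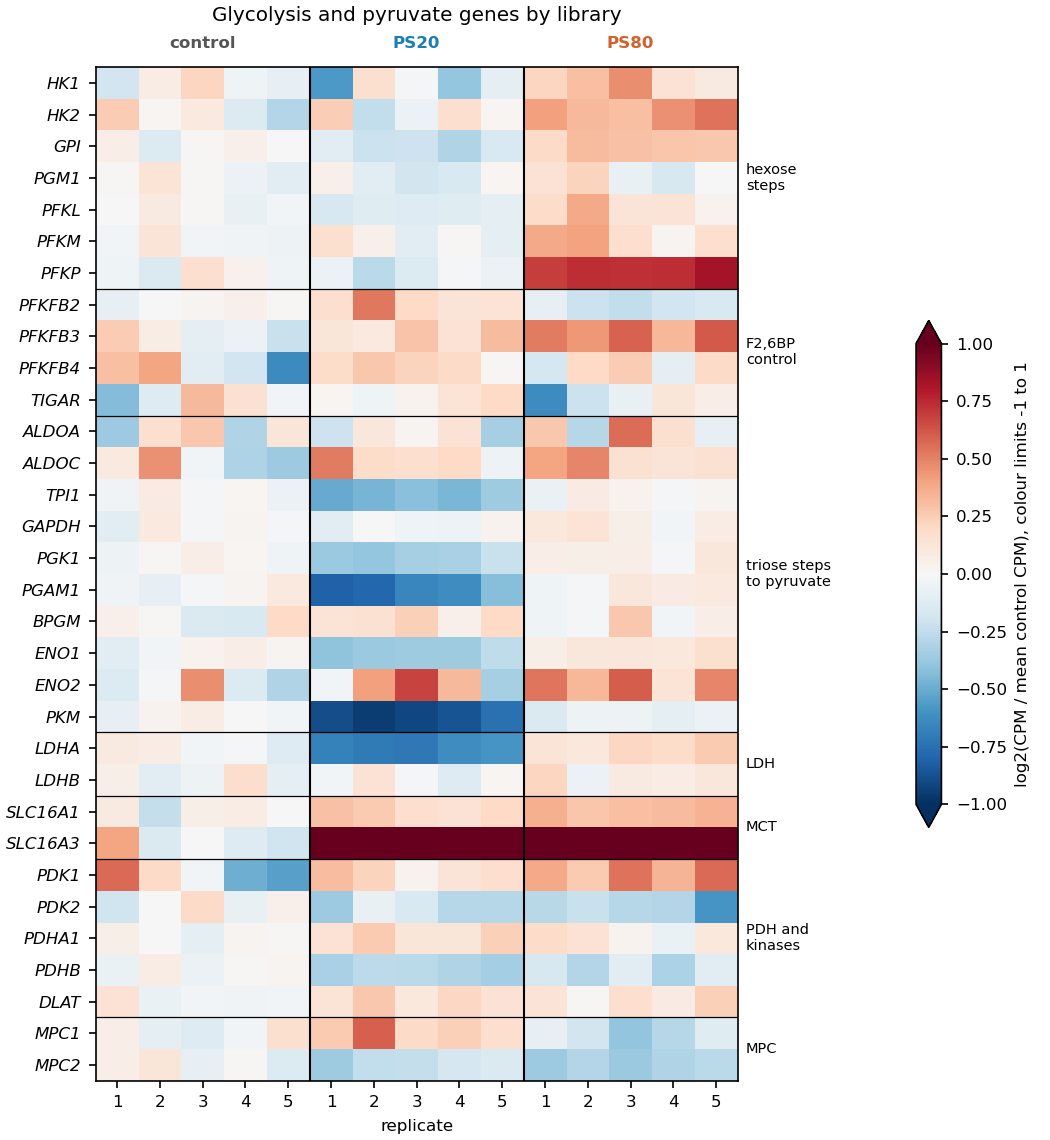
Colour shows log2 of a library's CPM over the gene's mean control CPM, with colours limited to -1 and 1, for the 32 genes (rows, ordered by step) in the 5 libraries of each group (columns). The PS20 columns are blue from TPI1 to LDHA with GAPDH, BPGM and ENO2 as exceptions, the PS80 columns are red at PFKP, and SLC16A3 is past the colour limit in all 10 exposed libraries.

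Together the 32 genes took 1.12% to 1.18% of a control library's counts, 0.927% to 0.996% of a PS20 library's and 1.17% to 1.22% of a PS80 library's. The PS20 range lay wholly below the other two. Scaled for exonic length (TPM, computed here from the counts and the exonic lengths in the tables), the level in control was highest for GAPDH at 5360 ± 213 TPM (SD, n = 5), followed by TPI1 at 2025 ± 60.1, ENO1 at 1560 ± 70.7, LDHA at 742 ± 46.0, PKM at 597 ± 21.3 and PGK1 at 543 ± 17.0. These 6 neighbours in the order differed by more than their SDs. At the bottom stood SLC16A3 at 1.90 ± 0.36 TPM and ENO2 at 5.90 ± 1.31 TPM. ALDOA, usually a very abundant aldolase, had only 37.9 ± 7.11 TPM. Because 54.2% of its exonic bases also lie in exons of other listed genes, where reads are left unassigned, that value was not read as its level.

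The triose steps held 5 of the 9 genes that fell with PS20. Of their 10 genes, 5 (50.0%) fell with PS20, against 23.9% of all genes, and none rose. PKM, which encodes muscle-type pyruvate kinase (ENSG00000067225.21, chromosome 15, 72199029 to 72231819, minus strand, GRCh38), makes pyruvate and ATP in the last step of glycolysis. Its level was 1123, 1222, 1251, 1185 and 1168 CPM in control replicates 1 to 5, 644, 617, 632, 653 and 709 CPM with PS20, and 1074, 1151, 1151, 1117 and 1144 CPM with PS80. The PS20 libraries formed a group of their own far below both others, and the PS80 libraries overlapped the control range. The log2 fold change was -0.87 ± 0.05 (SE) with PS20, a 1.83-fold fall (adjusted p = 4.796e-13), and -0.08 ± 0.05 with PS80 (adjusted p = 0.2087).

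PGAM1 (ENSG00000171314.9, chromosome 10, 97426191 to 97433444, plus strand), the phosphoglycerate mutase of most tissues, measured 138, 133, 139, 144 and 151 CPM in control. It was at 80.5, 81.6, 89.6, 91.5 and 105 CPM with PS20 and at 137, 139, 152, 149 and 151 CPM with PS80. All PS20 libraries lay below all others, and the PS80 libraries fell among the control libraries. PGAM1 fell by 0.65 ± 0.06 on the log2 scale with PS20 (adjusted p = 1.196e-08), and its value with PS80 was 0.05 ± 0.06 (adjusted p = 0.6202). Reads from its 13 listed pseudogenes came to 0.63% of its own counts.

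Smaller falls with PS20 were measured for TPI1, ENO1 and PGK1. TPI1, triosephosphate isomerase, was at 1241, 1346, 1259, 1288 and 1222 CPM in control, 898, 920, 953, 927 and 995 CPM with PS20, and 1214, 1344, 1303, 1252 and 1297 CPM with PS80. Its PS20 libraries were all lowest, and its control and PS80 libraries mixed. The fall with PS20 was -0.44 ± 0.05 (adjusted p = 2.807e-08), and the PS80 value was 0.01 ± 0.05 (adjusted p = 0.8664).

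ENO1, the main enolase, was at 1756, 1854, 1937, 1984 and 1927 CPM in control, 1434, 1460, 1480, 1475 and 1585 CPM with PS20, and 1965, 2045, 2051, 2031 and 2119 CPM with PS80. Again only the PS20 libraries stood apart, at a log2 fold change of -0.35 ± 0.05 (adjusted p = 9.108e-07). With PS80 it was 0.11 ± 0.05 (adjusted p = 0.06309), which passed when libraries were paired by replicate number (adjusted p = 0.01874). PGK1, phosphoglycerate kinase, returns the first ATP of the pathway. It was at 661, 690, 717, 695 and 666 CPM in control, 531, 526, 546, 547 and 589 CPM with PS20, and 719, 715, 719, 680 and 744 CPM with PS80. The PS20 libraries were all lowest, at -0.32 ± 0.05 (adjusted p = 1.958e-06), and the PS80 value was 0.06 ± 0.05 (adjusted p = 0.3087).

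GAPDH stood in the middle of this run and passed in none of the 3 comparisons in the unpaired fit of all libraries. For PS80 against PS20 it passed when paired by replicate number (0.10, adjusted p = 0.03753). It also passed there with DESeq2 in place of edgeR (0.11, adjusted p = 0.04721) and without PS80 replicate 4 (0.13, adjusted p = 0.04617). Its libraries spanned 2782 to 3190 CPM in control, 2779 to 3061 CPM with PS20 and 2935 to 3283 CPM with PS80, with a log2 fold change of -0.03 ± 0.05 with PS20 (95% interval -0.13 to 0.07, adjusted p = 0.6191). That interval did not overlap those of PKM, PGAM1, TPI1, ENO1 and PGK1 with PS20, the nearest of which ended at -0.23. The difference between the genes was not itself tested. GAPDH has 65 listed pseudogenes, which together held 0.15% of its counts. The other triose genes, ALDOA, ALDOC, BPGM (bisphosphoglycerate mutase) and the neuronal enolase ENO2, did not pass with PS20 in the unpaired fit of all libraries. ENO2 passed with PS20 when PS20 replicate 5 was left out (0.43, adjusted p = 0.04217), and the alternatives for ALDOC are given below. ENO2 was at 5.35, 5.78, 8.10, 5.34 and 4.77 CPM in control, 5.75, 7.81, 9.365, 7.36 and 4.66 CPM with PS20, and 8.48, 7.38, 8.92, 6.46 and 8.23 CPM with PS80. Its groups overlapped, and it passed against control with PS80 (0.46 ± 0.17, adjusted p = 0.04175). That call was lost without any 1 of control replicates 1, 2, 4 and 5 or PS80 replicates 1, 3 and 5 (adjusted p = 0.06382 to 0.1092).

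**Figure D2:**
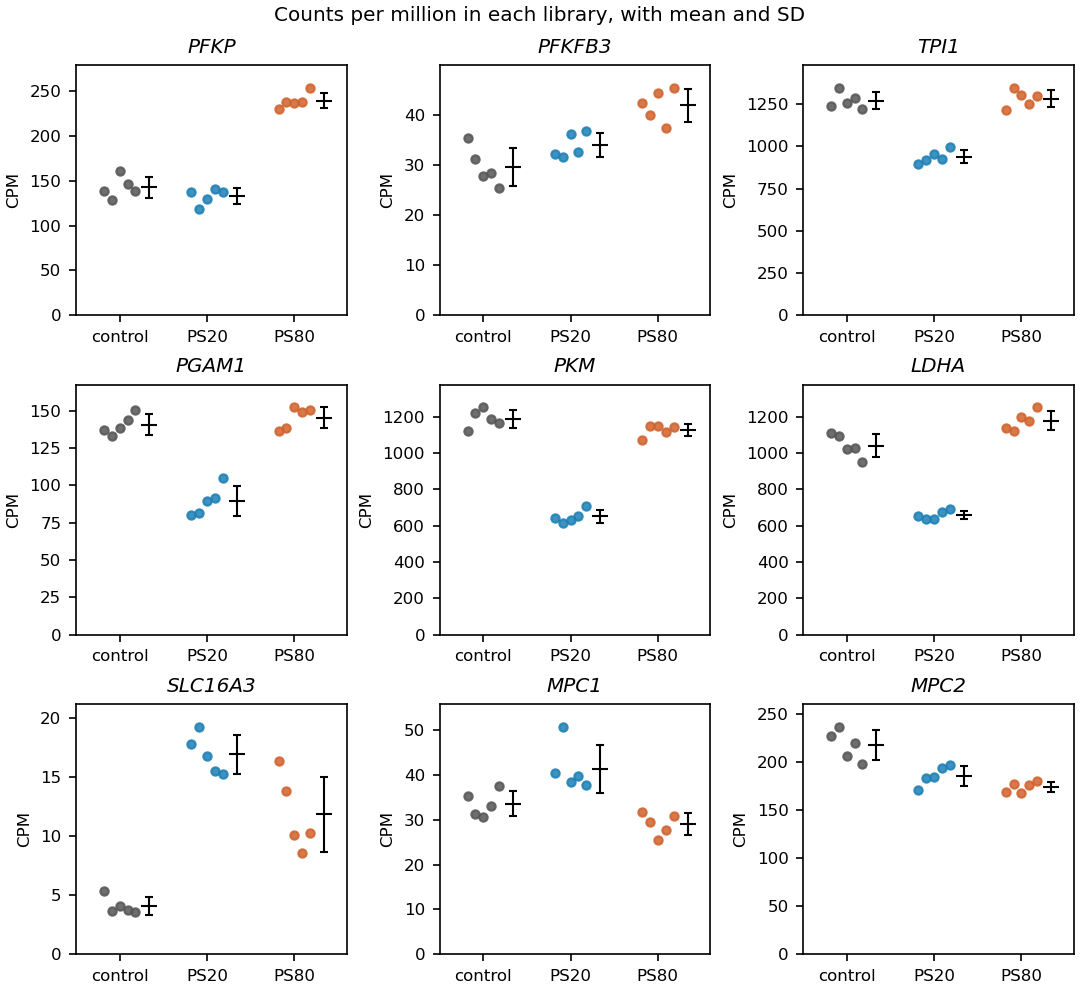
CPM (vertical axes, from 0) of 9 genes in each library (points, replicates 1 to 5 from left to right), with the mean and SD of each group of 5 beside them in black. PKM, LDHA, PGAM1 and TPI1 are low in PS20 alone, PFKP is high in PS80 alone, and SLC16A3 is high in both.

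LDHA (ENSG00000134333.14, chromosome 11, 18394560 to 18408425, plus strand) encodes the lactate dehydrogenase subunit that favours lactate formation. It was at 1111, 1095, 1022, 1026 and 954 CPM in control, 652, 640, 636, 677 and 693 CPM with PS20, and 1140, 1122, 1200, 1180 and 1252 CPM with PS80. The 3 groups did not overlap: PS20 lay below control and PS80 above it. LDHA fell with PS20 (-0.66 ± 0.05, adjusted p = 9.353e-11) and rose slightly with PS80 (0.18 ± 0.05, adjusted p = 0.006345). In replicates 1 and 2 alone the PS80 value was 0.04 (adjusted p = 0.8248), and in replicates 3 to 5 alone it was 0.27 (adjusted p = 1.06e-06). LDHA shares all 48 of its exon lengths with a gene annotated on a scaffold. The genes on scaffolds had 0 counts, and LDHA kept high counts.

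LDHB, the subunit that favours pyruvate formation, was at 93.6 to 114 CPM in control, 92.1 to 112 CPM with PS20 and 96.7 to 117 CPM with PS80, and passed in no comparison. The ratio of LDHA to LDHB, taken per exonic length as a ratio of TPM like the other ratios of partner genes below, was 5.13 ± 0.48 (SD, n = 5) in control, 3.25 ± 0.29 with PS20 and 5.45 ± 0.37 with PS80. Every PS20 ratio (2.83 to 3.63) was below every control ratio (4.45 to 5.78) and every PS80 ratio (4.82 to 5.74). An exact two-sided permutation test over the 252 splits gave p = 0.007937 for PS20 against control, the smallest p these group sizes allow (0.01361 after adjustment over 12 such tests), the same for PS80 against PS20, and p = 0.2698 for PS80 against control. Of LDHB's exonic bases, 33.4% overlap another listed gene, where reads are left unassigned, so the level of LDHB, and with it the ratio, may be off by an amount that was not measured.

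The 250 bases before the start are shown for the 3 genes that fell most with PS20 and for SLC16A3, which rose most, because the first 3 moved together and SLC16A3 the other way. They were taken from RefSeq on GRCh38.p14, which held 62 such windows for 30 of the 32 genes, and they read 5′ to 3′ on the gene's strand. Capitals mark ACGTG or GCGTG on either strand, the core letters of a hypoxia response element. ACGTG is also part of CACGTG, the E-box that MYC and the ChREBP complex bind.
PKM, chr15:72231191-72231440, minus strand: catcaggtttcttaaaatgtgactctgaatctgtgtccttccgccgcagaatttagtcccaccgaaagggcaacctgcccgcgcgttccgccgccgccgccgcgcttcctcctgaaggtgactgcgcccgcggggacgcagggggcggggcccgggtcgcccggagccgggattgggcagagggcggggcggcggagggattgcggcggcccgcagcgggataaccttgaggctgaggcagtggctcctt
PGAM1, chr10:97427568-97427817, plus strand: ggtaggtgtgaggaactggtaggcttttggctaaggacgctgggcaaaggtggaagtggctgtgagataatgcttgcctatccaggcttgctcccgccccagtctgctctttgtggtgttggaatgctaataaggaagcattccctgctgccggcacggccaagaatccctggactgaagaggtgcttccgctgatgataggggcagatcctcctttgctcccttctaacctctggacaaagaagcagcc
LDHA, chr11:18394313-18394562, plus strand: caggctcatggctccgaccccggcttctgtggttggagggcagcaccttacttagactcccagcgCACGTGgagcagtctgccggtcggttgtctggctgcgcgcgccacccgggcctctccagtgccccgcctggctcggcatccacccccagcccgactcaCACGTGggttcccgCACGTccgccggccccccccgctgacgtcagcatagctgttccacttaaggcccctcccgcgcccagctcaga
SLC16A3, chr17:82228792-82229041, plus strand: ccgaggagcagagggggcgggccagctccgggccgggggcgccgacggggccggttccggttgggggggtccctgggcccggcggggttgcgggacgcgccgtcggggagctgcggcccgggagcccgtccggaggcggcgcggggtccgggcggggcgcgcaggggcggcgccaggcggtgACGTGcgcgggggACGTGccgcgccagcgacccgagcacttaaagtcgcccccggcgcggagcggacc

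The PKM, PGAM1 and SLC16A3 windows lie before one start of the gene but inside its annotated span, which reaches farther upstream, and the LDHA window ends at the edge of its span. The PKM and PGAM1 windows, the only ones listed for those genes, held neither core. LDHA has 2 listed windows and SLC16A3 has 5, and the one shown of each is the one with the most ACGTG. It held ACGTG at 5 places counting both strands for LDHA, 4 of them in 2 E-boxes, and at 2 for SLC16A3, and the other windows of both genes held it at none. Over all windows of the 32 genes, 23 of 62 (37.1%) held ACGTG, against 18.5% of the 35116 windows in the table. GCGTG was in 20 of 62 (32.3%) against 32.2%, and CACGTG in 8 of 62 (12.9%) against 6.3%. Counted by gene, with a match in any of its windows, ACGTG was in 20 of 30 (66.7%) against 21.7% of the 27305 genes in the table, GCGTG in 18 (60.0%) against 36.2% and CACGTG in 8 (26.7%) against 7.7%. The 30 genes have more windows each than the genes of the table, so the shares by gene are not like for like. These are letter matches in short windows, and several windows of a gene overlap.

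In the hexose steps most changes came with PS80. Of 7 genes, 5 (71.4%) rose with PS80, against 17.2% of all genes, and none fell, while 1 (GPI) fell with PS20. PFKP (ENSG00000067057.19, chromosome 10, 3066333 to 3137718, plus strand), the platelet type of phosphofructokinase, was at 139, 129, 161, 147 and 139 CPM in control, 138, 118, 130, 141 and 137 CPM with PS20, and 231, 238, 238, 238 and 254 CPM with PS80. The PS80 libraries stood clear of the other 10, and control and PS20 overlapped. PFKP rose with PS80 (0.75 ± 0.06, 1.68-fold, adjusted p = 2.151e-09), and its value with PS20 was -0.10 ± 0.06 (adjusted p = 0.1644).

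The liver and muscle types of the enzyme moved less. PFKL was at 215, 229, 217, 205 and 212 CPM in control, 193, 198, 197, 198 and 203 CPM with PS20, and 244, 280, 236, 237 and 222 CPM with PS80. One PS80 library, replicate 5, lay within the control range. PFKL rose with PS80 (0.18 ± 0.05, adjusted p = 0.01188), a call that was lost without PS80 replicate 2 (0.12, adjusted p = 0.05484). With PS20 it did not pass (-0.12 ± 0.05, adjusted p = 0.06298), although all PS20 libraries were below all control libraries. PFKM rose with PS80 (0.24 ± 0.07, adjusted p = 0.008524), from a mean of 139 to 163 CPM with overlapping groups. The ratio of PFKP to PFKL in TPM was 0.763 ± 0.080 in control, 0.772 ± 0.055 with PS20 and 1.14 ± 0.12 with PS80. Every PS80 ratio was above every other (exact permutation p = 0.007937 against each group, adjusted 0.01361), and the ratio exceeded 1 in 4 of 5 PS80 libraries and in no other library.

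Hexokinases trap glucose as its phosphate. HK2, the inducible form, was at 59.0, 50.1, 52.9, 45.2 and 40.5 CPM in control, 58.9, 41.8, 47.5, 55.8 and 50.2 CPM with PS20, and 66.0, 62.0, 61.1, 68.1 and 72.2 CPM with PS80. The PS80 libraries were all highest, and control and PS20 covered the same range. HK2 rose with PS80 (0.43 ± 0.09, adjusted p = 0.0009395). In replicates 1 and 2 alone the value was 0.24 (adjusted p = 0.2424), and in replicates 3 to 5 alone it was 0.58 (adjusted p = 1.269e-06).

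HK1, the constitutive form, was at 22.7, 27.3, 30.01, 25.1 and 24.5 CPM in control, 17.4, 29.0, 25.5, 19.9 and 24.4 CPM with PS20, and 30.1, 31.9, 35.8, 28.7 and 27.5 CPM with PS80. Its groups overlapped, and neither emulsifier passed against control (-0.15 ± 0.11 with PS20, 0.25 ± 0.11 with PS80, adjusted p = 0.2947 and 0.08133). When paired by replicate number the PS80 value passed (0.24, adjusted p = 0.02119). PS80 against PS20 gave 0.39 ± 0.11 (adjusted p = 0.005433). The ratio of HK2 to HK1 in TPM was 2.24 ± 0.45, 2.69 ± 0.90 and 2.52 ± 0.42 in control, PS20 and PS80, and its groups overlapped (exact permutation p = 0.3095 to 0.8571 over the 3 comparisons).

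GPI, glucose-6-phosphate isomerase, was at 284, 246, 273, 280 and 269 CPM in control, 252, 233, 234, 220 and 243 CPM with PS20, and 308, 336, 331, 327 and 326 CPM with PS80. Here PS80 lay above all other libraries, and PS20 lay below 4 of the 5 controls. GPI was lower with PS20 (-0.20 ± 0.05, adjusted p = 0.002085) and higher with PS80 (0.27 ± 0.05, adjusted p = 0.0001598). A gene annotated on a scaffold shares 28 of its 30 exon lengths with GPI. PGM1, which links glucose 6-phosphate to glycogen, passed in no comparison.

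**Figure D3:**
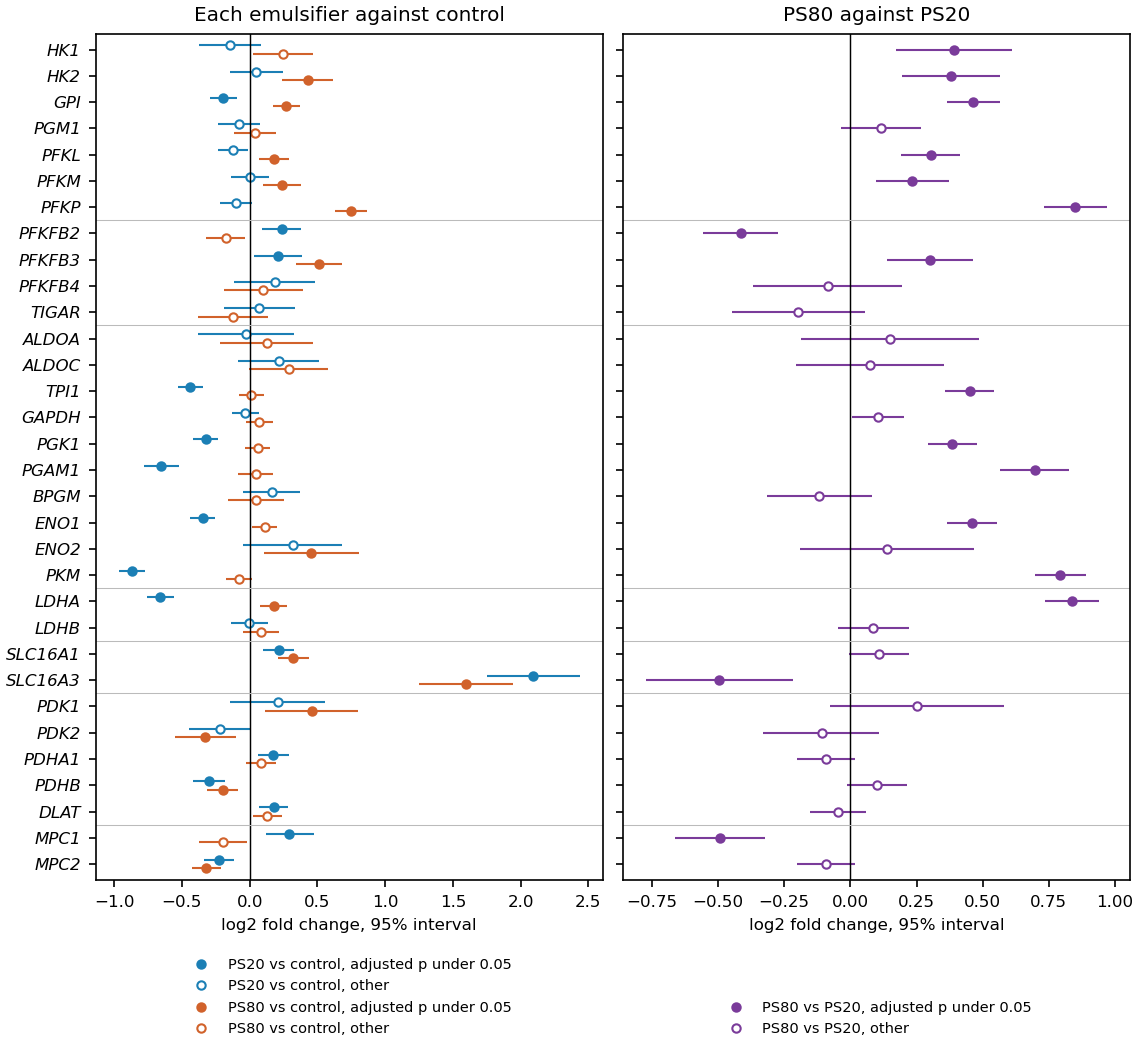
Log2 fold change (horizontal axes) with its 95% interval for each of the 32 genes, against control on the left (PS20 blue, PS80 orange) and PS80 against PS20 on the right. Filled points have an adjusted p under 0.05. On the left PKM, LDHA and PGAM1 lie at -0.87 to -0.65 with PS20, and SLC16A3 is the farthest to the right with both emulsifiers.

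The bifunctional enzymes PFKFB2, PFKFB3 and PFKFB4 set the level of fructose 2,6-bisphosphate. PFKFB3, the form with the strongest kinase activity, was at 35.3, 31.1, 27.9, 28.4 and 25.4 CPM in control, 32.2, 31.7, 36.1, 32.7 and 36.8 CPM with PS20, and 42.4, 40.0, 44.5, 37.3 and 45.4 CPM with PS80. The PS80 libraries were above all others, and the PS20 libraries overlapped control. PFKFB3 rose with PS80 (0.51 ± 0.08, adjusted p = 4.706e-05). Its value with PS20 (0.21 ± 0.09, adjusted p = 0.04497) was lost without any 1 of control replicates 3, 4 and 5 or PS20 replicates 3, 4 and 5 (adjusted p = 0.0505 to 0.1485), and was -0.05 in replicates 1 and 2 alone.

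PFKFB2, the heart type, was at 63.3, 66.7, 68.4, 69.3 and 67.6 CPM in control, 75.4, 96.6, 77.0, 73.2 and 73.9 CPM with PS20, and 63.4, 57.7, 56.5, 58.7 and 60.4 CPM with PS80. All PS20 libraries were above control, with replicate 2 highest, and 4 of 5 PS80 libraries were below it. PFKFB2 rose with PS20 (0.24 ± 0.07, adjusted p = 0.007345). With PS80 it was -0.18 ± 0.07 (adjusted p = 0.05206), which passed in the paired fit (-0.18, adjusted p = 0.02627). PFKFB4 and TIGAR, a fructose 2,6-bisphosphatase induced by p53, passed in no comparison in the unpaired fit of all libraries. In replicates 3 to 5 alone PFKFB4 passed with PS20 (0.457, adjusted p = 0.001169) and with PS80 (0.425, adjusted p = 0.004442). It also passed with PS20 without control replicate 2 (0.329, adjusted p = 0.04396). In replicates 1 and 2 alone PFKFB4 was at -0.137 with PS20 (adjusted p = 0.5688) and -0.309 with PS80 (adjusted p = 0.1598). Control libraries of PFKFB4 spanned 14.0 to 28.8 CPM, where replicates 1 and 2 averaged 27.9 CPM and replicates 3 to 5 averaged 17.8 CPM.

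The largest fold change among the 32 genes was in the RNA of a lactate transporter. SLC16A3 (ENSG00000141526.18, chromosome 17, 82217934 to 82261129, plus strand) encodes MCT4, the low-affinity transporter of cells that export much lactate. It was at 5.35, 3.68, 4.05, 3.73 and 3.54 CPM in control, 17.9, 19.3, 16.8, 15.5 and 15.3 CPM with PS20, and 16.4, 13.9, 10.1, 8.62 and 10.3 CPM with PS80. Every exposed library was above every control, and PS80 replicate 1 reached into the PS20 range. The log2 fold change was 2.09 ± 0.17 with PS20 (4.27-fold, adjusted p = 3.233e-10) and 1.60 ± 0.17 with PS80 (3.03-fold, adjusted p = 1.721e-07).

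PS80 was lower than PS20 for SLC16A3 (-0.50 ± 0.14, adjusted p = 0.005665). That difference was -0.31 in replicates 1 and 2 alone (adjusted p = 0.289) and -0.72 in replicates 3 to 5 alone (adjusted p = 8.561e-06). Of its exonic bases, 5.9% overlap other genes, CSNK1D among them, which had a mean of 67.8 CPM and passed in no comparison (0.08, -0.02 and -0.10).

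SLC16A1, which encodes MCT1, was at 175, 140, 171, 173 and 164 CPM in control, 201, 197, 184, 182 and 189 CPM with PS20, and 211, 199, 203, 204 and 209 CPM with PS80. All exposed libraries were above all controls. SLC16A1 rose with PS20 (0.22 ± 0.06, adjusted p = 0.00241) and with PS80 (0.32 ± 0.06, adjusted p = 8.319e-05), and PS80 against PS20 was 0.11 (95% interval -0.004 to 0.22, adjusted p = 0.1267). The ratio of SLC16A3 to SLC16A1 in TPM was 0.0170 ± 0.0026 in control, 0.0610 ± 0.0044 with PS20 and 0.0396 ± 0.0104 with PS80, and the 3 groups did not overlap (exact permutation p = 0.007937 in each comparison, adjusted 0.01361). SLC16A1 thus remained the far more abundant of the pair in every library.

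**Figure D4:**
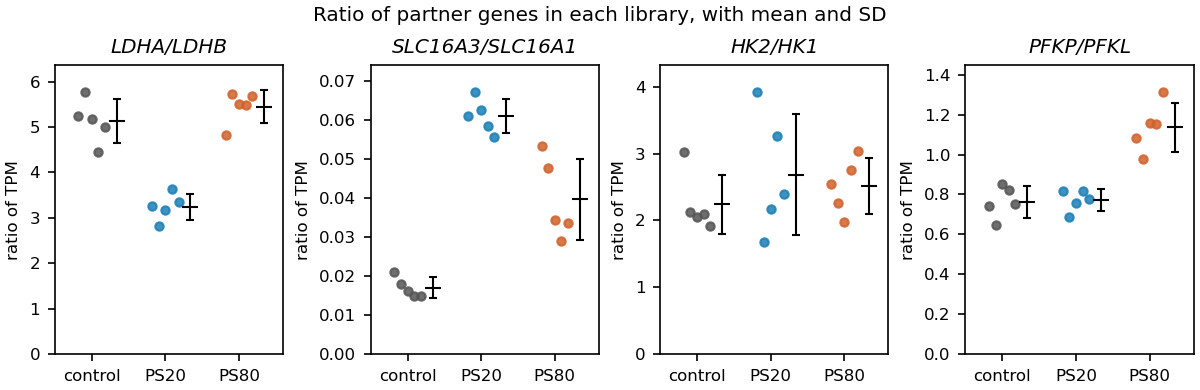
Ratio of TPM of 4 pairs of partner genes in each library (points, replicates 1 to 5 from left to right), with the mean and SD of each group of 5 in black and axes from 0. LDHA over LDHB is lowest in PS20, SLC16A3 over SLC16A1 is highest in PS20, PFKP over PFKL is highest in PS80, and HK2 over HK1 overlaps in all groups.

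The genes that send pyruvate into mitochondria changed by less. MPC1 and MPC2 form the mitochondrial pyruvate carrier as a pair. MPC1 was at 35.3, 31.4, 30.7, 33.1 and 37.6 CPM in control, 40.4, 50.8, 38.4, 39.7 and 37.8 CPM with PS20, and 31.8, 29.6, 25.6, 27.7 and 30.9 CPM with PS80. The PS20 libraries were all above control, with replicate 2 far up, and PS80 overlapped the lower control libraries. MPC1 rose with PS20 (0.29 ± 0.09, adjusted p = 0.006611). The PS80 value was -0.20 ± 0.09 (adjusted p = 0.079), which passed in the paired fit (-0.21, adjusted p = 0.03345).

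MPC2 was at 227, 237, 206, 220 and 198 CPM in control, 171, 184, 185, 194 and 197 CPM with PS20, and 169, 177, 168, 177 and 181 CPM with PS80. Every exposed library was below every control. MPC2 fell with PS20 (-0.23 ± 0.05, adjusted p = 0.001055) and with PS80 (-0.32 ± 0.05, adjusted p = 6.442e-05). Of its exonic bases, 21.8% overlap DCAF6, which fell in both comparisons too (-0.58 and -0.29). The part of DCAF6 reads in the counts of MPC2 was not tested.

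Of the pyruvate dehydrogenase subunits, PDHB (E1 beta) fell with both emulsifiers, from a mean of 117 CPM to 95.2 with PS20 (-0.30 ± 0.06, adjusted p = 8.791e-05) and 102 with PS80 (-0.20 ± 0.06, adjusted p = 0.006703), with no overlap with control. With no filter on low counts the PS80 value was -0.18 (adjusted p = 0.05755). PDHA1 (E1 alpha) and DLAT (E2) rose with PS20 by 0.18 ± 0.05 each (adjusted p = 0.009058 and 0.006609). With PS80 they were at 0.08 and 0.13 and did not pass. DLAT passed in the paired fit (0.13, adjusted p = 0.03148).

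Of the kinases that inhibit the complex, PDK1 had a wide spread in control and PDK2 had low counts. PDK1 was at 49.8, 38.6, 33.1, 24.1 and 23.2 CPM in control, 41.8, 39.5, 34.5, 36.8 and 38.0 CPM with PS20, and 43.8, 40.4, 49.2, 42.7 and 50.0 CPM with PS80. The control libraries alone spanned a wider range than either exposed group. PDK1 passed with PS80 (0.46 ± 0.16, adjusted p = 0.03977), but not in the paired fit (0.47, adjusted p = 0.05948), and in replicates 1 and 2 alone the value was -0.05 (adjusted p = 0.8264), against 0.89 in replicates 3 to 5 alone (adjusted p = 6.182e-09). It was also lost without any 1 of control replicates 3, 4 and 5 or PS80 replicates 1, 3, 4 and 5 (adjusted p = 0.05293 to 0.1018). With PS20 PDK1 did not pass in the unpaired fit of all libraries. It passed there in replicates 3 to 5 alone (0.50, adjusted p = 6.357e-05) and without control replicate 1 (0.36, adjusted p = 0.02504). In replicates 1 and 2 alone the PS20 value was -0.10 (adjusted p = 0.6257).

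ALDOC had the same split among controls, where replicates 1 and 2 averaged 33.2 CPM and replicates 3 to 5 averaged 23.3 CPM. It did not pass with PS80 in the unpaired fit of all libraries, but passed in the paired fit (0.29, adjusted p = 0.007735), with no filter on low counts (0.31, adjusted p = 0.004802), in replicates 3 to 5 alone (0.41, adjusted p = 0.001112) and without control replicate 2 (0.46, adjusted p = 0.004046). With PS20 ALDOC did not pass in the unpaired fit either. It passed there in the paired fit (0.23, adjusted p = 0.03066), in replicates 3 to 5 alone (0.39, adjusted p = 0.0008949) and without control replicate 2 (0.38, adjusted p = 0.01011). In replicates 1 and 2 alone the PS20 value was 0.04 (adjusted p = 0.8709). PDK2 was at 10.9, 12.5, 14.3, 11.9 and 13.0 CPM in control, 9.74, 11.9, 11.3, 10.3 and 10.3 CPM with PS20, and 10.3, 10.7, 10.3, 10.2 and 8.32 CPM with PS80. All PS80 libraries were below control. PDK2 fell with PS80 (-0.33 ± 0.11, adjusted p = 0.02217). That call was lost without control replicate 3 (adjusted p = 0.05131) or PS80 replicate 5 (adjusted p = 0.07358) and with no filter on low counts (adjusted p = 0.1308). Of the exonic bases of PDK2, 38.6% overlap SAMD14, which had a mean of 2.44 CPM. SAMD14 rose with PS80 (1.07, adjusted p = 0.00678), and its part in the counts of PDK2 was not tested.

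At the same dose and time, the emulsifiers differed directly in 16 of the 32 genes. PS80 was above PS20 for PFKP (0.85 ± 0.06, adjusted p = 1.059e-10), LDHA (0.84 ± 0.05, adjusted p = 9.409e-12), PKM (0.79 ± 0.05, adjusted p = 9.409e-12) and PGAM1 (0.70 ± 0.06, adjusted p = 1.134e-08). GPI, ENO1, TPI1, HK1, PGK1, HK2, PFKL, PFKFB3 and PFKM were also higher with PS80, by 0.23 to 0.46. For HK1 and PFKM the PS80 and PS20 libraries overlapped. For the others of these 13 they did not, and the share of all genes without overlap was not counted. The 13 had passed the test on these same libraries, so the lack of overlap adds no support of its own. PS80 was below PS20 for SLC16A3, for MPC1 (-0.49 ± 0.08, adjusted p = 5.868e-05) and for PFKFB2 (-0.41 ± 0.07, adjusted p = 4.757e-05). By step, 6 of 7 genes of the hexose steps (85.7%) and 5 of 10 of the triose steps (50.0%) were higher with PS80 than with PS20, against 18.0% of all genes, and none lower, and none of 5 genes of pyruvate dehydrogenase and its kinases passed. For PDHB the difference was 0.10 (95% interval -0.01 to 0.21), for DLAT -0.05 (-0.15 to 0.06), for PDHA1 -0.09 (-0.20 to 0.02) and for MPC2 -0.09 (-0.20 to 0.02). None of these 4 intervals reached beyond 0.21 in either direction. Among the 5 genes the largest difference was that of PDK1 (0.25), which did not pass in the unpaired fit of all libraries. PDK1 passed with only the 2 groups compared (0.25, adjusted p = 0.01233) and in replicates 3 to 5 alone (0.39, adjusted p = 0.0003904). In replicates 3 to 5 alone PDHA1 (-0.13, adjusted p = 0.03499) and MPC2 (-0.13, adjusted p = 0.02559) passed too.

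Other isoforms and neighbouring pathways were read from lists of related genes, whose counts stand against 24.3% of all genes higher and 23.9% lower with PS20, 17.2% and 16.0% with PS80, and 18.0% and 17.2% for PS80 against PS20. Of 18 listed isoforms and relatives of these enzymes, 13 had too few counts to test, among them HK3, PKLR and PGAM2 at 0 CPM in control. Of the 5 tested, HKDC1, named for its hexokinase domain, rose with both emulsifiers (0.42 and 0.67, adjusted p = 0.04089 and 0.00486), and ENO3 rose with PS20 (0.73, adjusted p = 0.01101). In control HKDC1 was at 77.4 ± 12.0 TPM, above HK2 at 36.0 and HK1 at 16.2. Its mean was 100 TPM with PS20 and 119 TPM with PS80. Of 5 tested transporters and chaperones of the monocarboxylate family, SLC16A5 rose with both (1.14 ± 0.11 and 0.68 ± 0.11), as did BSG (0.26 and 0.22), the chaperone basigin that brings MCT1 and MCT4 to the membrane. SLC16A10, an aromatic amino acid transporter, fell with both (-0.83 and -0.31).

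The citric acid cycle takes up the acetyl-CoA that pyruvate dehydrogenase makes. Of its 17 genes, 7 (41.2%) fell and 2 (11.8%) rose with PS20 (median -0.13), 4 (23.5%) rose and 2 (11.8%) fell with PS80 (median 0.07), and 10 (58.8%) were higher and none lower with PS80 than with PS20 (median 0.21). SUCLG1 (-0.57 ± 0.06 with PS20, adjusted p = 1.465e-08), IDH3B (-0.41 ± 0.05) and IDH3G (-0.52 ± 0.07), which encode subunits of succinyl-CoA ligase and of the NAD-dependent isocitrate dehydrogenase, had the smallest p-values. Of 6 further genes of the pyruvate dehydrogenase complex, PDPR, a regulator of its phosphatase, fell with both (-0.48 and -0.31), and PDP1 fell with PS80 (-0.25). The phosphatase PDP2 rose with PS20 (0.17) and was lower with PS80 than with PS20 (-0.31).

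In gluconeogenesis, 5 of 9 genes were tested. PCK2, the mitochondrial phosphoenolpyruvate carboxykinase, rose with PS20 (1.28 ± 0.13, adjusted p = 8.132e-07) and with PS80 (0.98 ± 0.13, adjusted p = 3.714e-05), from a mean of 58.2 CPM to 141 and 114. PC, pyruvate carboxylase, fell with both (-0.79 ± 0.11 and -0.42 ± 0.11), and so did the glucose 6-phosphate transporter SLC37A4 (-0.45 and -0.20). In the pentose phosphate pathway 9 of 10 genes were tested, and 2 (22.2%) rose and 1 (11.1%) fell with PS20, 5 (55.6%) rose and 1 (11.1%) fell with PS80. RPIA, ribose 5-phosphate isomerase, rose with PS80 (0.39 ± 0.08). PGD, 6-phosphogluconate dehydrogenase, fell with both (-0.11 and -0.18).

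Of 18 tested genes of glycogen and other hexoses, 5 (27.8%) rose and 7 (38.9%) fell with PS20 and 3 (16.7%) rose and 6 (33.3%) fell with PS80, the shares that rose being near the background. TKFC, a triokinase, rose with both (0.62 and 0.40). GYS1, muscle-type glycogen synthase, also rose with both (0.23 and 0.42). Of 9 genes of the redox shuttles, GOT1, the cytosolic aspartate aminotransferase, rose with both (0.69 ± 0.07 and 0.62 ± 0.07), as did GPD1L (0.39 and 0.42). The mitochondrial GOT2 fell with PS20 (-0.16) and was higher with PS80 than with PS20 (0.27).

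A list of 15 genes held regulators of glycolytic gene transcription together with TXNIP and ARRDC4. Of these, 4 (26.7%) rose and 5 (33.3%) fell with PS20, and 4 (26.7%) rose and 6 (40.0%) fell with PS80. The falls include TXNIP with both emulsifiers and ARRDC4 with PS80. MYC rose from a mean of 51.4 CPM to 116 with PS20 (1.18 ± 0.14, adjusted p = 5.542e-06) and 127 with PS80 (1.31 ± 0.14, adjusted p = 6.016e-06). TXNIP, a glucose-responsive inhibitor of glucose uptake, fell from 43.5 CPM to 27.3 with PS20 (-0.71 ± 0.18, adjusted p = 0.003886) and 13.8 with PS80 (-1.64 ± 0.18, adjusted p = 1.047e-05). Its relative ARRDC4 fell with PS80 (-1.47 ± 0.21, adjusted p = 8.204e-06) and was 0.11 ± 0.19 with PS20 (adjusted p = 0.6604). HIF1A RNA did not pass (0.05 ± 0.07 and 0.01 ± 0.07, adjusted p = 0.5568 and 0.8987), and HIF1AN, the asparaginyl hydroxylase that restrains HIF, fell with both (-0.46 ± 0.05 and -0.33 ± 0.05).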

How the data were processed

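RNA of Caco-2 cells was sequenced in 15 libraries from polyadenylated RNA, per the labels. The deposited tables hold whole-number read counts per gene, without normalization, 1 library each. Counting used featureCounts 2.0.0 or 2.0.3 and GENCODE release 42, per the file headers, where the command lines set 10 as the lowest mapping quality and leave reads unstranded. Reads from overlapping or antisense genes can therefore be confused or lost. Trimming with cutadapt and alignment with STAR 2.7.9a to GRCh38 are given per the submitters' processing notes.

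Of 69215 listed identifiers, 62672 (90.55%) were paired with a symbol. Groups were compared in R 4.3.3 with edgeR 4.0.16 (filterByExpr with a minimum count of 10 and total of 15, trimmed mean of M-values scaling, quasi-likelihood test, 1 term per group over all 15 libraries, Benjamini-Hochberg adjustment over 12769 genes). Scaling factors were 0.978 to 1.02 and the common coefficient of biological variation was 8.91%. The procedure was tested on simulated data. CPM values use the scaled library sizes, TPM the exonic lengths in the tables, and errors of fold changes are SE. The 4 ratios of partner genes are ratios of TPM and were compared on log2 ratios by exact two-sided permutation. Alternatives included DESeq2 1.42.0, other scalings and filters, and libraries left out.

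The 32 genes, the lists of other genes and the tests were chosen with earlier results of these data known. Values per library are given for genes that passed in a comparison with a log2 fold change of at least 0.3 in size there, up to 20 genes, the largest first. Of each other list, up to 3 genes with the smallest p among those that passed are named, and MYC, HIF1A and TXNIP in any case; some genes of those lists are not reported here. Replicate numbers are shared between groups in the titles, but no label says that libraries of the same number form pairs. Libraries of the same number deviated together for PS80 and control (correlations across genes 0.102 to 0.304, all 5 over 0.1), although only 3 of the 5 PS80 libraries correlated best with the control of their own number, so a paired fit, with the number as a block, is given for that comparison where it changes a call. In the other comparisons the main values are unpaired. For PS20 and control the correlations were -0.026 to 0.248, and 4 of the 5 PS20 libraries correlated best with their own number. For PS80 and PS20 they were 0.074 to 0.290, and 3 of 5 did. With the block, PFKL (-0.12, adjusted p = 0.02939) and ALDOC (0.23, adjusted p = 0.03066) gained a call with PS20, and GAPDH (0.10, adjusted p = 0.03753) for PS80 against PS20.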

Additional observations from a re-analysis of the deposited data

Results flagged for a closer look

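Of 108 groups of 5 values examined (the CPM of each gene and each ratio in each group), 8 had a library far from its group, with a gap above Dixon's limit of 0.71 of the group's range. Chance alone flags about 1 in 20 groups. In control, replicate 2 had 151.7 CPM of PFKM against 134.0 to 136.0 in the others. Control replicate 1 had 5.347 CPM of SLC16A3 against 3.544 to 4.05, 256.3 CPM of DLAT against 221.9 to 227.5, and a ratio of HK2 to HK1 of 3.025 against 1.917 to 2.132. With PS20, replicate 2 was high for PFKFB2 (96.58 CPM against 73.17 to 76.98) and for MPC1 (50.78 CPM against 37.77 to 40.42). With PS80, replicate 5 was low for PDK2 (8.321 CPM against 10.2 to 10.74) and replicate 1 was low in the ratio of LDHA to LDHB (4.818 against 5.481 to 5.735). The causes were not tested.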

How the results depend on the processing

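The alternatives were 2 other scalings, no filter on low counts, DESeq2, only the 2 groups compared, the replicate block, parts of the replicates, and each library left out. Over these, single-gene values kept their side of the threshold, with no called value reversed, in 549 of 576 for PS20 against control, 519 of 576 for PS80 against control and 563 of 576 for PS80 against PS20. In 29, 11 and 1 of these, a gene that passed in neither fit changed sign, and in the other 520, 508 and 562 the direction was kept too. PFKFB3 with PS20 became -0.048 (adjusted p = 0.8383) and PDK1 with PS80 became -0.053 (adjusted p = 0.8264) in replicates 1 and 2 alone. Those 2 replicates alone gave 3297 genes called for PS20 against control, 2213 for PS80 against control and 1612 for PS80 against PS20, in place of 6150, 4243 and 4502, and 6 of the 32 genes for PS80 against control in place of 14. They hold fewer libraries, as do replicates 3 to 5 alone. Those gave 6331, 4022 and 4952 genes called in the same order of comparisons. Of the 32 genes, 17, 18 and 20 passed in replicates 3 to 5 alone, in place of 16, 14 and 16. The cause of the difference between these parts of the replicates was not tested. With the replicate block, 18 of the 32 genes passed for PS20 against control, 19 for PS80 against control (14 higher, 5 lower) and 17 for PS80 against PS20, and 6866, 5179 and 5451 of all genes. In the PS80 comparison with control, HK1, PFKFB2, ALDOC, ENO1, DLAT and MPC1 gained a call and PDK1 lost it, and the block changed no other call there. With each library left out in turn, the 32 genes gave 15 to 18, 11 to 15 and 16 to 17 calls. The ratios in replicates 3 to 5 alone cannot reach the threshold. The scalings and filters moved the median over all genes by at most 0.033 on the log2 scale. PFKFB3 with PS20 also missed the threshold with library size alone, no filter, DESeq2 and only the 2 groups compared, ENO2 with PS80 with library size alone and DESeq2, PDK1 with PS80 with library size alone and only the 2 groups compared, and PFKFB2 and MPC1 with PS20 in replicates 3 to 5 alone. Depth limits ENO2, SLC16A3, PDK2 and BPGM, with the fewest counts in a library at 25, 17, 51 and 47.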
